A study of Mus musculus with 10 samples.

Results

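The sirtuins are the 7 mouse genes Sirt1 to Sirt7, and they were followed here in Larp7 knockout hearts of mice. LARP7 is an RNA-binding protein that stabilises 7SK, a noncoding RNA known for keeping the transcription kinase P-TEFb inactive. The members were taken by symbol: the E15.5 table of 15498 genes lists 6 of the 7, and the 15987 adult genes used include all 7. Sirt5 had no row at E15.5 and was not analysed there. RNA was measured by sequencing in 10 samples on the C57BL/6 background. At the embryonic stage E15.5 these were whole hearts, 3 from Larp7-/- and 3 from Larp7+/+ embryos. At 4 months of age they were pieces of heart apex, 2 from Myh6Cre;Larp7f/f mice, called mCKO, and 2 from Larp7f/f mice, called CTR. Both adult groups carry the floxed alleles, and no Cre is named for CTR. Cre from the Myh6 promoter acts in cardiomyocytes, so the other cells of the mCKO apex keep their Larp7. Whether each sample is a separate animal is not in the labels, so p-values describe the spread among these samples, which may be technical.

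Sirtuins remove acyl groups from lysines and use up NAD+ in doing so, which ties them to the metabolic state of the cell. SIRT1, SIRT6 and SIRT7 act mainly in the nucleus, SIRT2 mainly in the cytosol, and SIRT3, SIRT4 and SIRT5 in mitochondria. In mouse heart SIRT3 is known for keeping mitochondrial enzymes deacetylated, and loss of SIRT6 or SIRT7 is known to give heart disease in mice. SIRT1 deacetylates PGC-1alpha, a coactivator of mitochondrial biogenesis, which is the subject of the study. RNA levels report neither the amount nor the activity of these enzymes, and in bulk tissue fewer cells of a type and less RNA per cell cannot be told apart.

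What makes the 7 genes a family is a shared NAD+-binding core. Its glycine-rich segment is encoded by 42 bases, shown because it is the part by which the members are related. The lines give it 5′ to 3′ on the coding strand, from GENCODE M21 transcripts on mm10, with capitals for the 6 of 14 codons that encode the same amino acid in all 7 genes.
Sirt1: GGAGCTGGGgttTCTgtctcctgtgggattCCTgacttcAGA
Sirt2: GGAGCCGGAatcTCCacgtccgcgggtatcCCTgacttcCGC
Sirt3: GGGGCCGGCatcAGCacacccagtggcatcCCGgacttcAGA
Sirt4: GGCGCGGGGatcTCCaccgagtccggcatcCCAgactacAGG
Sirt5: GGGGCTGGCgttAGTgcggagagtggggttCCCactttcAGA
Sirt6: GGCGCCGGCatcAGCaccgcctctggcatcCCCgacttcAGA
Sirt7: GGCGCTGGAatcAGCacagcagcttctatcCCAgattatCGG
Against Sirt1, the segment is identical at 64.3% of bases in Sirt2, Sirt5 and Sirt6, at 61.9% in Sirt3, at 59.5% in Sirt4 and at 42.9% in Sirt7. It lies in 1 exon in Sirt4 (chr5:115482896-115482937, minus strand) and in Sirt5 (chr13:43371888-43371929, plus strand). In the other genes it is split over 2 exons, within chr10:63331865-63335644 for Sirt1, chr7:28776881-28777018 for Sirt2, chr7:140877882-140877997 for Sirt3, chr10:81625898-81626530 for Sirt6 and chr11:120622188-120624507 for Sirt7. All of these are on the minus strand except Sirt2.

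The authors deposited values scaled to a nearly equal sum per sample and rounded to whole numbers. They sum to between 998498 and 1001508 in the E15.5 samples and between 998946 and 1000320 in the adult samples, so the sequencing depth is unknown. Whether they are also per length was not given in the sources used here, so levels are not ranked between the sirtuins. Larp7 was 45, 54 and 40 in Larp7-/- hearts, against 96, 88 and 103 in Larp7+/+ hearts. It was 26 and 24 in the mCKO apex, against 26 and 28 in the CTR apex, so its RNA does not check the adult labels. In nearly every gene a knockout value and the control value with its replicate number add to a total that is the same for each number. This held within 2 units for 8328 of 8366 E15.5 genes and 8640 of 8656 adult genes with a mean of at least 10. The sirtuins have it too: Sirt2 at E15.5 is 72, 78 and 74 in Larp7-/- hearts, against 74, 68 and 72 in Larp7+/+ hearts, and each numbered pair adds to the same sum. The SDs of both groups of a gene are therefore not independent, and the replicate number was kept as a block in the test.

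Markers of cell types differed between the groups. The 5 listed cardiomyocyte markers summed to between 12848 and 16189 in Larp7-/- hearts, against 17596 to 20938 in Larp7+/+ hearts, with all 5 changes negative and none of the genes at 0; Myh6, Myh7, Actn2, Ryr2 and Pln had no row at E15.5 and were not analysed there. In the adult the 10 markers summed to between 59767 and 60396 in the mCKO apex, against 63181 to 63810 in the CTR apex, with 7 changes negative and 3 positive. Of these, 1 was called, the fetal myosin gene Myh7 (log2 change 1.47, limma). The 8 fibroblast markers summed to between 2270 and 2587 in the mCKO apex, against 1185 to 1500 in the CTR apex, with 7 of 8 changes positive. The macrophage markers there summed to between 442 and 448 in mCKO, against 358 to 366 in CTR (7 of 8 positive). The endothelial ones summed to between 759 and 789 in mCKO, against 823 to 852 in CTR (8 of 8 negative). None of these adult fibroblast, macrophage and endothelial markers was called (limma). At E15.5 4 of 5 fibroblast markers were positive, and Pdgfra was called higher (log2 change 0.71, adjusted p = 0.0296, limma). Of 4 mural cell markers 2 were positive and 2 negative, and Rgs5 was called lower (log2 change -0.89, adjusted p = 0.00694, limma). Some alternative fits, given at the end, called no gene at E15.5, so the Pdgfra and Rgs5 calls depend on the fit. Of 7 endothelial markers 5 were positive and 0 called (limma). Markers of stratified epithelium summed to between 59 and 215 in Larp7-/- hearts, against 57 to 96 in Larp7+/+ hearts. Number 1 was the highest sample of each group. In the adult 3 of 4 of these markers were positive, and Krt18 was called higher (log2 change 1.82, adjusted p = 0.0135, limma). It had only 4 and 4 in mCKO, against 1 and 0 in CTR. The 3 tested erythroid markers were positive in both models, with 0 called (limma). Their sums overlapped, at 125 to 233 in Larp7-/- against 65 to 171 in Larp7+/+ hearts. In the adult they were 49 to 123 in mCKO against 21 to 55 in CTR. The part of these cell types in the sirtuin values was not tested; without number 1 of Larp7-/- 0 of 6 sirtuins were called (limma).

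No sirtuin was called in either model. At E15.5 the test on log2(value + 1) called 0 of the 6 members (limma, Benjamini-Hochberg adjustment over all 13609 tested genes), against 0.632% of all tested genes (0.529% higher and 0.103% lower in Larp7-/-). At an unadjusted p under 0.05 it was also 0 of 6, against 13.9% of all tested genes. In the adult it called 0 of 7 members, against 3.29% of 14833 tested genes (2.34% higher and 0.951% lower in mCKO), and at an unadjusted p under 0.05 again 0 of 7, against 12.3% of genes. All listed members passed the filter on low values. In the authors' deposited table the lowest unadjusted p of a sirtuin was 0.365 at E15.5, for Sirt3, and 0.769 in the adult, for Sirt4. The median change of the members was also below that of all tested genes in size. At E15.5 the median absolute log2 change was 0.08 for the sirtuins and 0.21 for all tested genes, and in the adult it was 0.11 and 0.18. All tested genes include many with values of a few units, where a single rounded unit is a large log2 change. The medians are thus not matched for level. They describe the members and show nothing particular to the family.

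**Figure D1:**
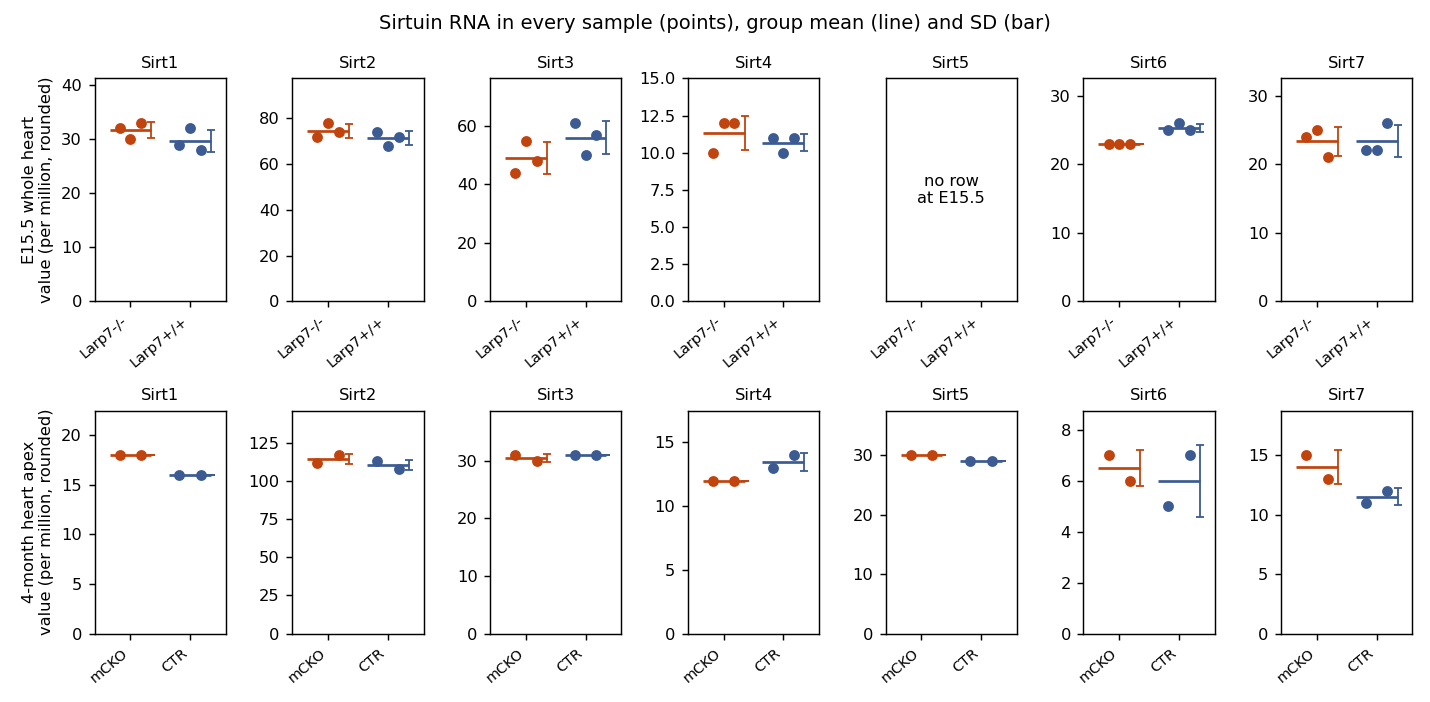
Value of each sirtuin in every sample, as deposited and rounded, with axes that start at 0. Points are samples, lines group means and bars SDs; the upper row is E15.5 (3 Larp7-/- and 3 Larp7+/+ hearts) and the lower row the adult apex (2 mCKO and 2 CTR). Knockout and control lie close together in every panel, with the widest relative gap for Sirt7 in the adult.

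Among the nuclear members, Sirt1 encodes the deacetylase of p53, FOXO factors and PGC-1alpha. At E15.5 it had 32, 30 and 33 in Larp7-/- hearts, against 29, 32 and 28 in Larp7+/+ hearts. The groups overlapped, with means of 31.7 ± 1.53 in Larp7-/- and 29.7 ± 2.08 in Larp7+/+ hearts (SD, n = 3 each). The log2 change was 0.09 (SE 0.18, adjusted p = 0.849, limma), and its 95% interval ran from -17.0% to 37.0%. In the adult Sirt1 had 18 and 18 in the mCKO apex, against 16 and 16 in the CTR apex. The groups did not overlap, as in 42.1% of all tested adult genes (29.3% with mCKO above and 12.8% with mCKO below), and a single unit was 5.88% of the mean. The log2 change was 0.16 (SE 0.19, adjusted p = 0.877, limma), with an interval from -14.0% to 45.2%. This was the member whose call depended most on how rounding was handled. Because both values of a group are the same whole number, a fit that takes no account of rounding sees no spread and called Sirt1 higher, at an adjusted p of 0.0319 with the block and 0.000255 without it (limma).

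Sirt6, which deacetylates histone H3 and represses glycolytic genes, was the one member at E15.5 whose groups did not overlap. It had 23, 23 and 23 in Larp7-/- hearts, against 25, 26 and 25 in Larp7+/+ hearts. Every Larp7-/- heart was thus lower, by 2 or 3 units, where 28.1% of all tested genes had groups without overlap (19.3% with Larp7-/- above and 8.75% with Larp7-/- below). The log2 change was -0.13 (SE 0.19, adjusted p = 0.78, limma), and the interval ran from -30.0% to 18.8%. In the adult Sirt6 stood near the resolution of the table, with 7 and 6 in the mCKO apex, against 5 and 7 in the CTR apex. The log2 change was 0.11 (SE 0.29, adjusted p = 0.962, limma), and its sign was negative, at -0.10, without number 1 of CTR. A single unit was 16.0% of that mean. The interval of -27.5% to 60.8% was the widest in the adult, so a change within it was not excluded.

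Sirt7, a nucleolar member that promotes transcription of ribosomal RNA genes, had 24, 25 and 21 in Larp7-/- hearts, against 22, 22 and 26 in Larp7+/+ hearts. Both groups had the same mean of 23.3, and the log2 change was 0.00 (SE 0.19, adjusted p = 1, limma; interval -23.9% to 31.4%). With median-of-ratios scaling its sign was negative, at -0.06. In the adult it had 15 and 13 in the mCKO apex, against 11 and 12 in the CTR apex. Both mCKO values were above both CTR values. With means of 14 ± 1.41 in mCKO and 11.5 ± 0.71 in CTR (SD, n = 2 each), the log2 change of 0.26 was the largest of any member in size (SE 0.22, adjusted p = 0.747, limma; interval -10.6% to 60.7%). A larger change in size was seen in 36.2% of all tested adult genes, a share not matched for level.

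Sirt2, the mainly cytosolic member and a deacetylase of tubulin, overlapped between groups in both models. Its means at E15.5 were 74.7 ± 3.06 in Larp7-/- and 71.3 ± 3.06 in Larp7+/+ hearts (SD, n = 3 each). Its log2 change was 0.07 (SE 0.16, adjusted p = 0.884, limma; interval -16.4% to 31.0%). In the adult it had 112 and 117 in the mCKO apex, against 113 and 108 in the CTR apex. The log2 change was 0.05 (SE 0.15, adjusted p = 0.972, limma), and the interval of -15.1% to 26.4% was the narrowest of the family in the adult. The sign of that change was negative, at -0.01, with median-of-ratios scaling.

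Among the mitochondrial members, Sirt3, the main mitochondrial deacetylase, had the largest change in size at E15.5. It had 44, 55 and 48 in Larp7-/- hearts, against 61, 50 and 57 in Larp7+/+ hearts. The groups overlapped, because number 2 went against the other numbers in both groups. The means were 49 ± 5.57 in Larp7-/- and 56 ± 5.57 in Larp7+/+ hearts (SD, n = 3 each), and the log2 change was -0.19 (SE 0.17, adjusted p = 0.644, limma; interval -30.8% to 11%). A larger change in size was seen in 57.9% of tested genes, a share not matched for level. Without either number 1 sample the log2 change was -0.05, and without either number 2 sample it was -0.35, uncalled in each case (limma, adjusted p between 0.406 and 1). In the adult Sirt3 had 31 and 30 in the mCKO apex, against 31 and 31 in the CTR apex. Its log2 change was -0.02 (SE 0.17, adjusted p = 1, limma; interval -21.3% to 23.1%).

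Sirt4, a mitochondrial member with weak deacetylase activity that restrains glutamate dehydrogenase, had 10, 12 and 12 in Larp7-/- hearts, against 11, 10 and 11 in Larp7+/+ hearts. These values overlapped, and the interval ran from -24.7% to 47.8% (log2 change 0.08, SE 0.24, adjusted p = 0.916, limma). The change was -0.01 without either number 2 sample. In the adult it had 12 and 12 in the mCKO apex, against 13 and 14 in the CTR apex. Both mCKO samples were lower, by 1 or 2 units, and the log2 change was -0.16 (SE 0.22, adjusted p = 0.891, limma; interval -33.1% to 20.2%). Sirt5, which removes succinyl and malonyl groups from mitochondrial enzymes, had 30 and 30 in the mCKO apex, against 29 and 29 in the CTR apex. The groups differed by a single unit, 3.39% of the mean, without overlap. The log2 change was 0.05 (SE 0.17, adjusted p = 0.991, limma; interval -17.5% to 29.5%), and its sign was negative, at -0.01, with median-of-ratios scaling. Without rounding variance and without the block Sirt5 was called higher (adjusted p = 0.00187, limma).

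**Figure D2:**
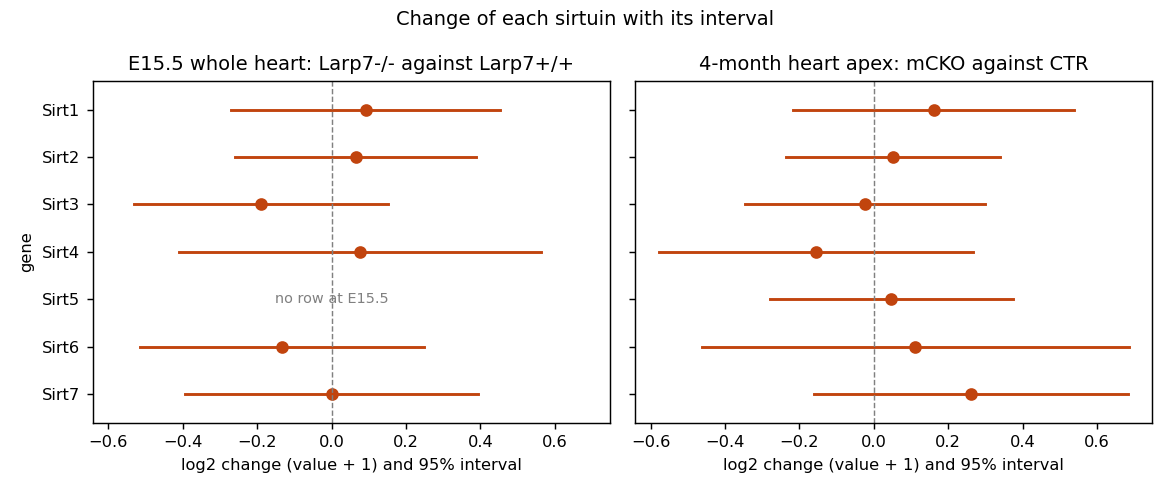
Log2 change of each sirtuin, on the log2(value + 1) scale, in Larp7-/- against Larp7+/+ hearts (left) and in mCKO against CTR apex (right). Points are estimates and lines 95% intervals of the limma fit; every interval crosses 0, and they are widest for Sirt4 at E15.5 and for Sirt6 in the adult.

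The intervals bound what these samples could show. At E15.5 the outer bounds over the members were -30.8%, for Sirt3, and 47.8%, for Sirt4, on the scale of value + 1. In the adult they were -33.1%, for Sirt4, and 60.8%, for Sirt6. These bounds lean on spread borrowed from genes of similar level, and for the median adult gene the borrowed spread is all that enters. Among the 5178 E15.5 genes with means between those of the lowest and highest sirtuin, 40 were called, and the smallest called log2 change was 0.65 in size. In the adult 354 of 8718 such genes were called, with a smallest size of 0.47. A change of Sirt7 or Sirt1 of the size seen in the adult would thus have been below what was called among genes of this level.

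**Figure D3:**
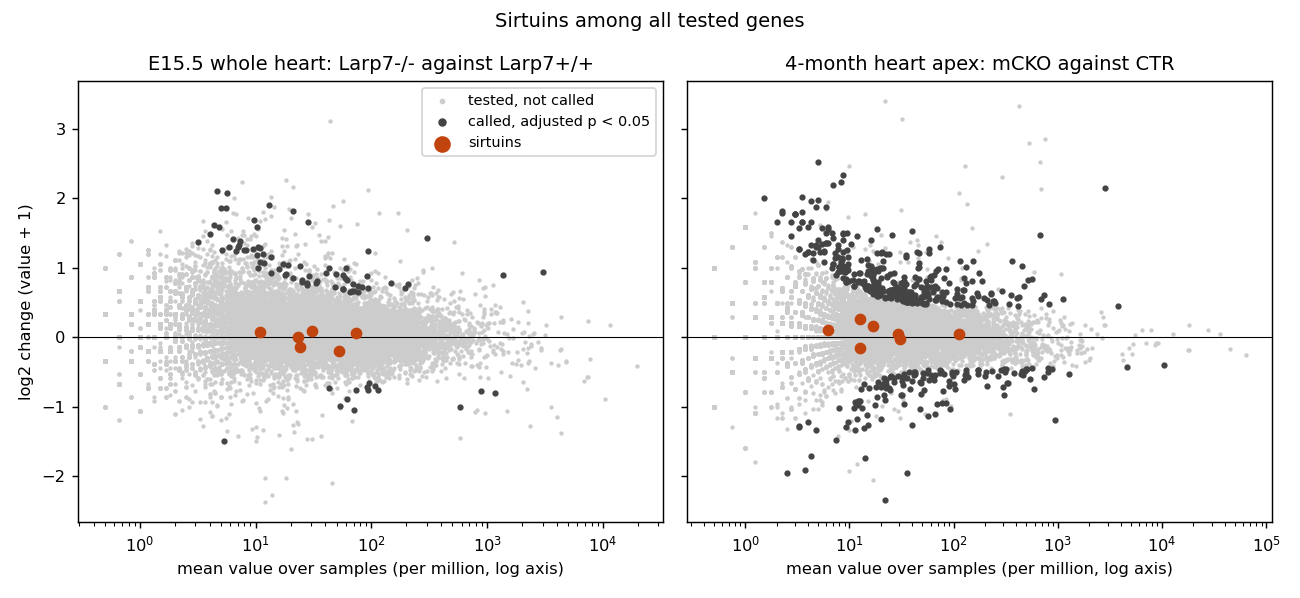
Log2 change against mean value (log axis, deposited units) for all tested genes, at E15.5 (left) and in the adult (right). Grey points were not called, dark points had an adjusted p under 0.05, and the sirtuins (orange) lie in the uncalled band around 0, with log2 changes between -0.19 and 0.09 at E15.5 and between -0.16 and 0.26 in the adult.

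Between the control samples of both stages the sirtuins had unequal levels. The tables were normalized separately, list different genes and come from apex and whole heart, so these values are set side by side with no test. Sirt6 had 5 and 7 in the adult CTR apex, against 25, 26 and 25 in embryonic Larp7+/+ hearts. Sirt1 averaged 16 and Sirt7 11.5 in the adult, against 29.7 and 23.3 in the embryo. Sirt3 averaged 31 in the adult and 56 in the embryo. The opposite order was seen for Sirt2, with 110.5 in the adult and 71.3 in the embryo, and for Sirt4, with 13.5 and 10.7. For each of these 6 genes the adult and embryonic control values did not overlap, but that was so for 83.6% of the 9768 genes tested in both tables (16.2% with the adult higher and 67.4% with it lower). The 2 members that stood higher in the adult are a cytosolic and a mitochondrial one. The 4 that stood lower include all 3 nuclear members and Sirt3. Standing lower was also the commoner order over all genes compared (67.4%), and Sirt5 had no embryonic value. No compartment pattern is therefore read from this split.

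The sirtuins lie on 5 chromosomes of mm10: Sirt1 at chr10:63319005-63381704, Sirt2 at chr7:28766735-28788661, Sirt3 at chr7:140863666-140882309, Sirt4 at chr5:115478010-115484725, Sirt5 at chr13:43365496-43395203, Sirt6 at chr10:81621785-81627797 and Sirt7 at chr11:120618372-120625240. Some share exonic sequence with other genes, and whether the counting used strand was not given in the sources used here, so their values are uncertain to that extent. Sirt3 shares 342 of its 5973 annotated exonic bases with Psmd13, a proteasome subunit gene on the opposite strand that starts 341 bases from it, and 418 with Ric8a, also on the opposite strand. Psmd13 had 101, 103 and 89 in Larp7-/- hearts, against 108, 107 and 121 in Larp7+/+ hearts, without overlap. Its log2 change of -0.20 was close in size to that of Sirt3 and was not called (SE 0.16, adjusted p = 0.612, limma). In the adult Psmd13 had 63 and 61 in the mCKO apex, against 57 and 58 in the CTR apex (log2 change 0.11, adjusted p = 0.896, limma). Ric8a had log2 changes of -0.04 in the embryonic hearts and 0.11 in the apex, uncalled in both (adjusted p = 0.935 and 0.933, limma). Sirt7 shares 124 exonic bases with Mafg on the same strand, and Sirt2 shares 42 with Nfkbib on the opposite strand. Mafg had log2 changes of 0.35 in the embryonic hearts and -0.20 in the apex, and Nfkbib of 0.00 and -0.10, none of them called (adjusted p of at least 0.641, limma). Sirt1 overlaps the antisense gene Gm16145 by 65 exonic bases, and Sirt7 overlaps the microRNA gene Mir6936 by 54, neither of which was analysed here.

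The genes whose profiles were most like those of single sirtuins were found over all 10 samples, with each gene centred within its table. Tsc22d2 was nearest to Sirt1 (Pearson r = 0.983), Mospd1 to Sirt2 (0.991) and Gfm2 to Sirt3 (0.984). Kiz was nearest to Sirt4 (0.882), Hip1r to Sirt6 (0.943) and Gusb to Sirt7 (0.979). These are the best of 5639 genes each (5640 for Sirt6) with a mean of at least 10 in both tables. The samples share fixed totals within a number, so the 10 points are not independent, and the profiles of the members span only a few whole units.

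Of the lists of genes around the sirtuins, few members passed the test. NAD+ is made from nicotinamide by NAMPT and the NMNAT enzymes and from nicotinamide riboside by the NMRK kinases. At E15.5 9 of the 18 NAD synthesis genes had no row, among them Nampt, Nmrk1 and Nmrk2, so these routes were not covered there. Of 8 tested genes 4 had positive and 4 negative changes. Their median was 0.05, against 0.11 over all tested genes, and 0 were called (limma). Qprt, which makes a nicotinate nucleotide from quinolinate, had 8, 8 and 6 in Larp7-/- hearts, against 3, 3 and 4 in Larp7+/+ hearts (adjusted p = 0.137, limma). Nmnat1, the nuclear NAD+ synthase, had 19, 18 and 21 in Larp7-/- hearts, against 25, 25 and 23 in Larp7+/+ hearts (adjusted p = 0.489, limma). In the adult 5 of 13 were positive and 8 negative, with a median of -0.14, against 0.08 over all tested genes, and 0 were called (limma). When any 1 sample was left out, without the block, 1 or 2 were called, of which 1 was lower each time. Nmnat3, the mitochondrial form, had 12 and 10 in the mCKO apex, against 16 and 18 in the CTR apex (adjusted p = 0.107, limma). Nadk2, the mitochondrial NAD kinase, had 48 and 60 in the mCKO apex, against 72 and 61 in the CTR apex (adjusted p = 0.382, limma). This kinase acts on NAD+ and does not make it, so the list is not one of synthesis alone. The widest gap of the list, chosen after its values were seen, was that of the muscle kinase Nmrk2, with 44 and 31 in the mCKO apex, against 0 and 12 in the CTR apex. Both mCKO values were above both CTR values, and the spread between the numbers left it uncalled (adjusted p = 0.869, limma).

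The other NAD+-consuming enzymes, which compete with sirtuins for the cofactor, had mostly positive changes. At E15.5 6 of 7 were positive with a median of 0.26, against 0.11 over all tested genes, and in the adult 8 of 9 with a median of 0.22, against 0.08. Called were 0 in either model (limma), and 0 to 2 higher in the adult when any 1 sample was left out. Cd38, a NAD+ glycohydrolase, had 44, 54 and 46 in Larp7-/- hearts, against 38, 28 and 36 in Larp7+/+ hearts (log2 change 0.49, adjusted p = 0.19, limma). Tnks, a poly-ADP-ribose polymerase, had 62 and 60 in the mCKO apex, against 44 and 46 in the CTR apex (log2 change 0.43, adjusted p = 0.0991, limma). In Larp7-/- hearts Tnks had 182, 190 and 228, against 178, 171 and 132 in Larp7+/+ hearts (adjusted p = 0.408, limma). Bst1, a relative of Cd38, had 4 and 4 in the mCKO apex, against 2 and 2 in the CTR apex (adjusted p = 0.437, limma). Regulators of SIRT1 had a median of 0.12 over 7 genes in the embryonic hearts, against 0.11 over all tested genes. In the apex it was 0.04 over 11, against 0.08, with 0 called in either (limma). The regulators were not split by whether they raise or lower SIRT1, so the medians give no direction for SIRT1. In the adult 4 were called with the block and 5 without it when rounding variance was left out. Both of those fits also called more genes over the whole adult table than the fit reported. Dyrk3, a kinase of SIRT1, had 4, 4 and 5 in Larp7-/- hearts, against 3, 3 and 3 in Larp7+/+ hearts (adjusted p = 0.584, limma). Usp22, which removes ubiquitin from SIRT1, had 404, 430 and 434 in Larp7-/- hearts, against 387, 361 and 357 in Larp7+/+ hearts (adjusted p = 0.632, limma). In the adult the SUMO proteases had the lowest p-values. Senp1 had 18 and 18 in the mCKO apex, against 14 and 15 in the CTR apex (adjusted p = 0.619, limma). Senp2 had 28 and 28 in the mCKO apex, against 24 and 24 in the CTR apex (adjusted p = 0.723, limma).

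Genes for known sirtuin substrates were split by compartment and stage. The stages cover different genes. Of the mitochondrial list Sod2, Glud1, Ppif, Sdha, Hadha and Lonp1 had rows only in the adult. So had Rela, Xrcc6, Stk11 and Myc of the nuclear list. Of the mitochondrial substrates 15 of 18 in the adult had negative changes (median -0.22, against 0.08 over all tested genes). There 1 fell (limma), where 0.951% of all tested genes were called lower. At E15.5 6 of 12 were negative, with a median of -0.01, against 0.11 over all tested genes, and 0 were called (limma). Hadha, of the trifunctional protein of fatty acid oxidation, fell to 1114 and 1000 in the mCKO apex, against 1471 and 1585 in the CTR apex (log2 change -0.53, SE 0.13, adjusted p = 0.00492, limma). Acadvl, an acyl-CoA dehydrogenase, had 293 and 314 in the mCKO apex, against 421 and 400 in the CTR apex (adjusted p = 0.0624, limma). At E15.5 Acadl, the long-chain dehydrogenase, had 466, 378 and 404 in Larp7-/- hearts, against 487, 574 and 548 in Larp7+/+ hearts (adjusted p = 0.343, limma). The Hadha call was lost without rounding variance, with or without the block (adjusted p = 0.565 and 0.126, limma), and with eBayes without trend and robust options (0.633). It held when any 1 sample was left out. Those fits have no block, leave 1 sample in a group and called more genes over the whole adult table. They are thus no stricter a check than the fit reported. The count of called mitochondrial substrates in the adult was 4 without the block, 3 with a mean of at least 10 and 4 with median-of-ratios scaling. It was 0 without rounding variance or without trend and robust options. At E15.5 0 to 2 mitochondrial substrates were called in either direction when any 1 sample was left out, with 0 or 1 of them lower.

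Of the nuclear substrates 12 of 14 were positive at E15.5, with a median of 0.25, against 0.11 over all tested genes, and 0 called (limma). In the adult 7 of 18 were positive, with a median of -0.04, against 0.08 over all tested genes. There 1 was called lower (limma), where 0.951% of all tested genes were called lower. When any 1 sample was left out 0 or 1 were called at E15.5 and 0 to 3 in the adult. Foxo1, a forkhead factor, had 66, 66 and 72 in Larp7-/- hearts, against 51, 52 and 45 in Larp7+/+ hearts (log2 change 0.46, adjusted p = 0.187, limma). E2f1, a cell cycle factor, had 42, 38 and 29 in Larp7-/- hearts, against 43, 46 and 56 in Larp7+/+ hearts (adjusted p = 0.3, limma). Srebf1, a regulator of lipid synthesis, was called lower in the adult, with 18 and 29 in the mCKO apex, against 40 and 29 in the CTR apex. Its groups met at 29, and the call (log2 change -0.55, SE 0.17, adjusted p = 0.0373, limma) was lost without number 1 of mCKO (adjusted p = 0.559) and without number 1 of CTR (adjusted p = 0.246, limma). It was also lost without the block, without rounding variance and without trend and robust options (adjusted p = 0.33 to 0.633, limma). Myc, a growth-promoting transcription factor, had 9 and 9 in the mCKO apex, against 4 and 5 in the CTR apex (adjusted p = 0.07, limma).

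The zinc-dependent deacetylases act by another mechanism, without NAD+. At E15.5 8 of 9 were positive with a median of 0.07, against 0.11 over all tested genes, and 0 were called (limma). In the adult 5 of 11 were positive and 5 negative. There 1 was called lower (limma), where 0.951% of all tested genes were called lower. Hdac11 fell in the adult, to 9 and 10 in the mCKO apex, against 17 and 16 in the CTR apex (log2 change -0.74, SE 0.22, adjusted p = 0.0257, limma). It lost that call without rounding variance, with or without the block (adjusted p = 0.419 and 0.058, limma), and without trend and robust options (0.237). Hdac5, a class IIa member, had 82 and 78 in the mCKO apex, against 94 and 98 in the CTR apex (adjusted p = 0.485, limma). At E15.5 Hdac4, of the same class, had 89, 101 and 82 in Larp7-/- hearts, against 60, 49 and 68 in Larp7+/+ hearts (log2 change 0.62, adjusted p = 0.0791, limma). Hdac6, which like SIRT2 deacetylates tubulin, had 83, 90 and 82 in Larp7-/- hearts, against 69, 63 and 70 in Larp7+/+ hearts (adjusted p = 0.344, limma).

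**Figure D4:**
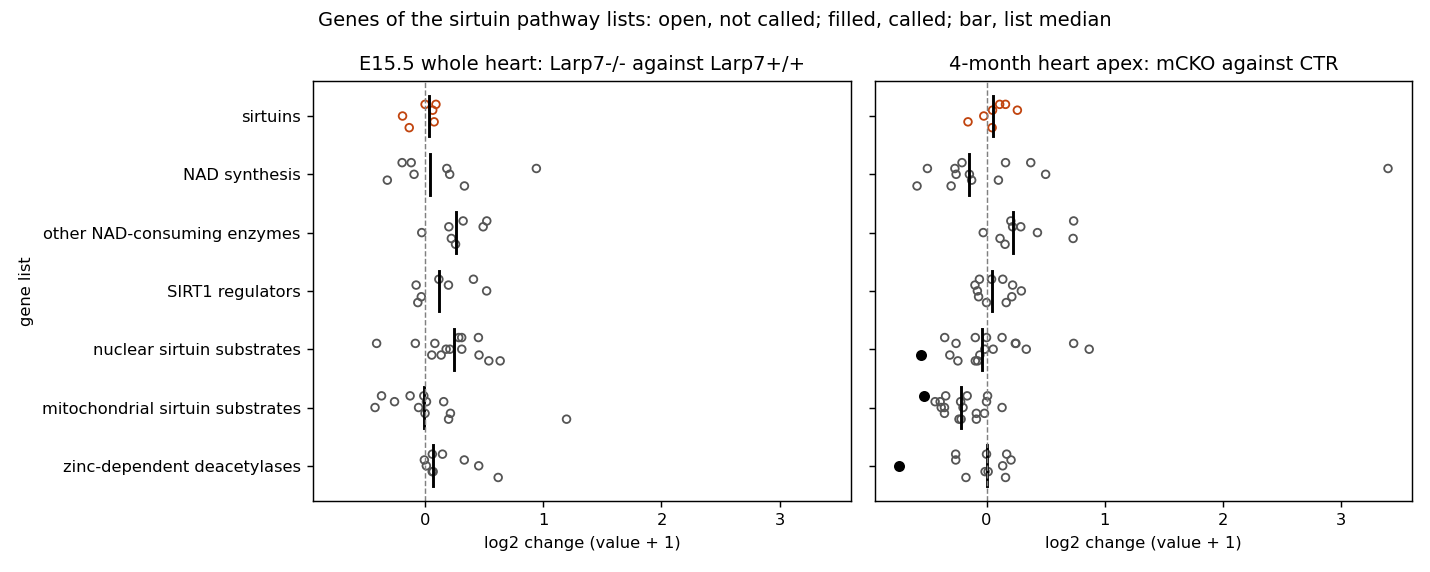
Log2 change of each tested gene of the sirtuins and 6 related lists, at E15.5 (left) and in the adult (right). Open circles were not called, filled circles were called (adjusted p under 0.05, limma) and bars are list medians; the sirtuins lie between -0.19 and 0.26, while single genes of other lists lie as far out as 3.40 (Nmrk2, uncalled).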

How the data were processed

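Total RNA of mouse heart was sequenced. Per the submitters' processing notes, HISAT2, HTSeq and the build mm10 were used, with no version given. The authors deposited 1 table per model with a score per gene and sample, a per-million value rounded to whole numbers; how it was scaled was not given in the sources used here. Beside these stand the authors' mean signal, log2 fold change, p-value and, at E15.5, adjusted p-value, with the column names of a DESeq2 result per the file headers. Adult genes with a name used more than once were left out.

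In each table separately, log2(value + 1) of knockout and control samples was compared with limma 3.58.1 (R 4.3.3), for genes that reached 1 in as many samples as a group holds. The replicate number was a block, and eBayes used trend and robust options. An allowance for rounding was added to the variance of each gene. It was set at 0.0833 in per-million units and converted to log2 units by the level of the gene. It therefore weighed most at low values, and 0.0833 is not itself a log2 variance. Benjamini-Hochberg adjustment ran over all tested genes, with calls at 0.05. The block follows from the fixed totals: deviations of same-numbered samples mirror each other (correlation over genes, which are no replicates, of -0.816 to -0.798 at E15.5 and -0.807 in the adult), which is not a pairing stated in the labels. The fit was checked on simulated data. Depth is unknown, so no counting interval is given. The members, lists and tests were chosen with earlier results of these data known. Besides the sirtuins, the overlapping genes and Larp7, the text names per list and model the called genes (up to 4), filled to 2 by lowest p (1 such gene at E15.5 is not reported here); other genes named are said to be chosen after their values were seen. Alternatives changed the block, rounding variance, pseudocount, filter, scaling, prior and samples.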

Additional observations from a re-analysis of the deposited data

Results flagged for a closer look

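For 4 genes named beside the sirtuins every knockout sample lay on one side of all controls at E15.5 and on the other side in the adult. These were 4 of the 28 named genes tested in both tables, or 14.3%, against 5.52% of all 9768 genes tested in both, and nothing is read from that count. The difference between the models was not tested, and none of these changes was called in limma. Foxo1 had a log2 change of 0.46 in the embryonic hearts and -0.31 in the apex. E2f1 had -0.41 in the embryonic hearts and 0.74 in the apex, where its values were 4 and 4 in the mCKO apex, against 2 and 2 in the CTR apex. Hdac4 had 0.62 in the embryonic hearts and -0.26 in the apex. Psmd13, which overlaps Sirt3, had -0.20 in the embryonic hearts and 0.11 in the apex. No sirtuin met this rule.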

How the results depend on the processing

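At E15.5 0 sirtuins were called in limma under any of the 15 alternatives, with the lowest adjusted p for Sirt6 (0.0984, with neither replicate block nor rounding variance). Some of these fits, named below, called no gene at all. They lost even Larp7, which the fit reported called lower (adjusted p = 0.00159, limma), so their lack of sirtuin calls says nothing about the sirtuins. In the adult the count of called sirtuins was 1 with the replicate block but without rounding variance (Sirt1) and 2 with neither replicate block nor rounding variance (Sirt1 and Sirt5), and 0 under the other 11 alternatives. Leaving out any 1 sample called 0 sirtuins in either model; in the adult these fits had no replicate block, since the block leaves no residual degrees of freedom, and a lone sample is assumed to vary like the other group. Signs of small changes were not stable: Sirt4 at E15.5 ranged from -0.01 to 0.18, Sirt7 at E15.5 from -0.09 to 0.15, Sirt2 in the adult from -0.01 to 0.08, Sirt5 in the adult from -0.01 to 0.05 and Sirt6 in the adult from -0.10 to 0.32. Sirt6 in the adult was not tested with a mean of at least 10. Called genes over the whole E15.5 table, 86 in the fit reported, numbered 604 with no replicate block, 0 with the replicate block but without rounding variance, 1040 with neither replicate block nor rounding variance, 46 with pseudocount 0.5, 232 with pseudocount 5, 601 with no filter on low values, 0 with a mean of at least 10, 19 with median-of-ratios scaling, 0 with eBayes without trend and robust, and 213 to 506 without 1 sample. Over the adult table, 488 in the fit reported, they numbered 1130 with the replicate block but without rounding variance, 1622 with neither replicate block nor rounding variance, and 625, 845, 940 and 1285 without 1 sample. With median-of-ratios scaling the split was 12 higher and 7 lower against 72 and 14 at E15.5, and 286 and 210 against 347 and 141 in the adult. Rounding to whole units and unknown depth limit Sirt4, Sirt6 and Sirt7, where a unit is 7.84% to 16.0% of the adult mean.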
